A study of Homo sapiens with 6 samples.

Results

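Transcript levels of 10 genes of bone morphogenetic protein (BMP) signalling were read from RNA sequencing of cells labelled HCT116, an established line of human colorectal carcinoma. The genes were chosen by symbol and are 10 of the 19655 genes of the deposited table. They were the ligand genes BMP2, BMP4, BMP6 and BMP7, the decoy receptor gene BAMBI, the inhibitor-of-DNA-binding genes ID1, ID2 and ID3, and the inhibitory SMAD genes SMAD6 and SMAD7. The control group (NC, 3 libraries) carries the genotype label control. The other group (ASO, 3 libraries) is labelled as a knockdown of SNORA67, a small nucleolar RNA, made by transfecting an antisense oligonucleotide (a short nucleic acid that pairs with its target RNA). All cells were grown in DMEM with foetal bovine serum. The labels do not give what the control cells received, which oligonucleotides were used, at what dose, and when cells were collected. They also do not say whether replicates were separate cultures, so a p-value here reflects library-to-library spread that may be technical.

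BMPs are secreted dimers of the TGF-beta superfamily. They bring together type I and type II receptor kinases, which phosphorylate SMAD1, SMAD5 and SMAD9. These join SMAD4 and enter the nucleus, where the ID genes are among the best-known direct targets. ID proteins lack a DNA-binding region and sequester bHLH transcription factors. SMAD6, SMAD7 and BAMBI are induced by the pathway, or by the related TGF-beta branch, and act back on it as inhibitors. In the intestine, BMP signalling is known for restraining crypt stem cells and favouring differentiation.

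Total estimated counts ran from 50728524 to 53715905 across the NC libraries and from 49136502 to 54905215 across the ASO libraries. A sequenced fragment appeared to be worth about 4 counts, so 3 fragments, or 12 counts per library, were taken as the detection limit (0.220 to 0.240 CPM). CPM are counts scaled to a library total of 1000000 after TMM scaling. EIF4A1, the translation factor gene whose intron holds SNORA67, was at 1544 ± 55.3 CPM in NC against 617 ± 46.3 CPM in ASO (SD, n = 3 each), and SNORA67 itself was not analysed here, so the knockdown was not checked. The markers did not all follow the label. Of 14 markers of colon epithelium, KRT8, KRT18 and ELF3 reached 10 CPM in NC and 8 were under 1 CPM, CDX1, CDX2, VIL1 and LGALS4 among them, while EPCAM stood at 4.37 ± 1.13 CPM and CDH1, the E-cadherin gene, at 1.06 ± 0.229 CPM. Of 11 fibroblast markers, 5 reached 10 CPM in NC, with VIM at 1201 ± 82.2, COL5A1 at 612 ± 33.3, THY1 at 192 ± 14.7 and PDGFRB at 101 ± 8.09 CPM. Another 3 were under 1 CPM in NC. These were COL3A1 at 0.582 ± 0.0252 CPM, COL1A2 at 0.0490 ± 0.0848 CPM and PDGFRA, with 0 counts in every library. Whether the cells are the labelled line was not tested, and the levels below are those of the cells as labelled. The summed epithelial markers were at 1981 to 2286 CPM in NC and 1712 to 2253 CPM in ASO, and the summed fibroblast markers at 2164 to 2440 and 2854 to 3416 CPM. These sums rest on a few abundant genes. Of 11 epithelial markers tested, 3 were called higher, from NC levels under the detection limit, LGALS4 to 18.0 ± 2.65, VIL1 to 8.88 ± 6.97 and KRT19 to 1.66 ± 0.398 CPM in ASO. These 3 passed the filter on low counts through ASO alone. The share higher, 27.3%, is near that over all genes tested, where 26.8% were called higher and 19.1% lower. Of 9 fibroblast markers tested, 3 were called higher and 3 lower, COL5A1 reaching 1280.0 ± 125 and COL1A1 374 ± 41.1 CPM, while PDGFRB fell to 41.0 ± 3.99, LUM from 4.53 ± 0.907 to 1.87 ± 0.289 and DCN from 3.31 ± 0.366 to 1.73 ± 0.150 CPM. Endothelial markers summed to 10.4 to 11.01 CPM in NC and 16.4 to 21.6 CPM in ASO, with KDR at 0 counts in every library. Leukocyte markers summed to 0.906 to 2.11 and 10.1 to 11.9 CPM, with PTPRC, CD3E and CD3D at 0 counts in every library. The part of these markers in the results below was not tested, and in bulk RNA a change in the number of cells of a type and in the RNA per cell cannot be told apart.

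Of the 10 genes, 8 passed the filter on low counts and were tested in the fit of all genes. 7 of these 8 were higher in ASO and ID1 was not called (edgeR quasi-likelihood test, Benjamini-Hochberg adjusted p under 0.05 over 14062 genes). Over all genes tested, 46.0% were called, 26.8% as higher and 19.1% as lower. The median log2 fold change of the 8 was 1.06, against 0.01 over all genes tested. BMP4 and BMP7 did not pass the filter. All 7 genes called higher stayed so under each of the 15 other settings and left-out libraries tried, and groups did not overlap for any of the 7 (over all genes tested, groups did not overlap for 57.6%, and for 31.6% with ASO the higher).

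**Figure D1:**
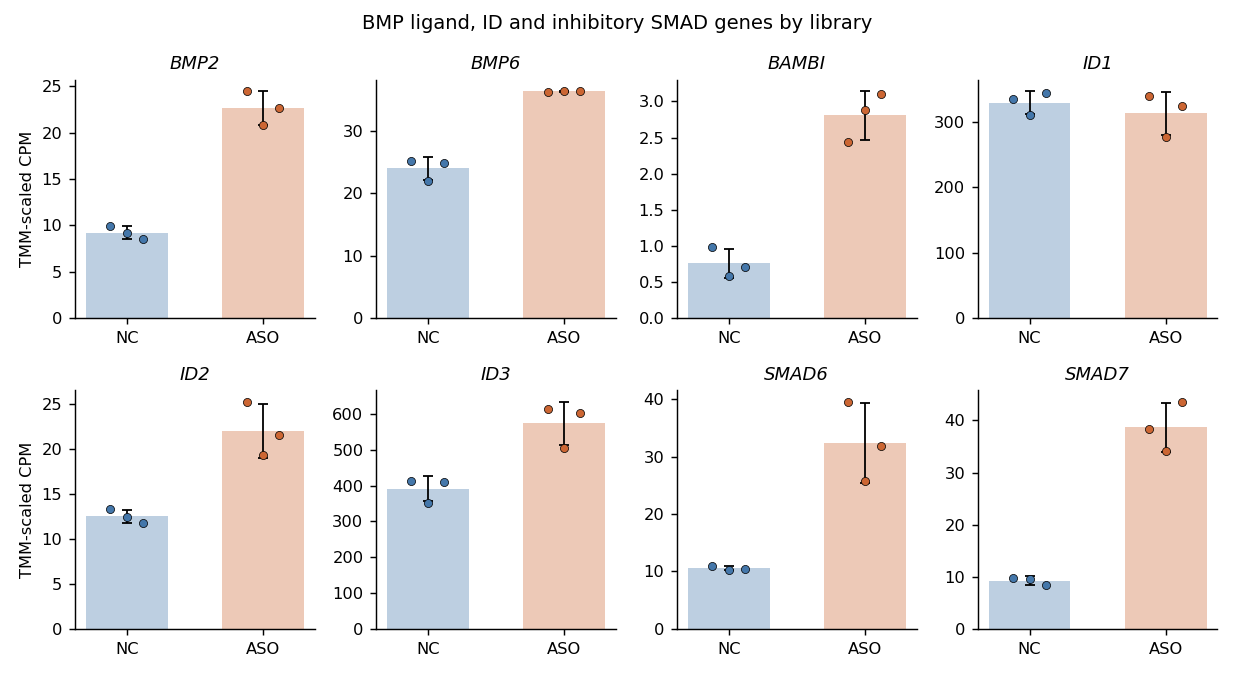
TMM-scaled CPM (vertical axes, each from 0) of the 8 tested genes in the 3 NC and 3 ASO libraries; points are libraries, bars are means and error bars are SD. All 3 ASO points lie above all 3 NC points in every panel except that of ID1, where the groups overlap.

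Upstream sequence is shown for SMAD6, which rose about 3-fold, BMP6, which rose about 1.5-fold, and ID1, which was not called, as examples of genes with different fold changes. Each run holds the 250 bases before the RefSeq start on GRCh38.p14, plus strand, 5′ to 3′, with matches to a searched motif in capitals. The SMAD6 and ID1 windows hold 8 and 6 bases that GENCODE 29 counts as exon.
SMAD6, chr15:66701986-66702235: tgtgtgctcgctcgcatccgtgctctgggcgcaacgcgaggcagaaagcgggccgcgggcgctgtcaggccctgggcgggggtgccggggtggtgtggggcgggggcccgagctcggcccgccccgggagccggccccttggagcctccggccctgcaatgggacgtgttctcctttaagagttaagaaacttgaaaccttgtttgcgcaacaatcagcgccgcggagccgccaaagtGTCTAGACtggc
BMP6, chr6:7725849-7726098: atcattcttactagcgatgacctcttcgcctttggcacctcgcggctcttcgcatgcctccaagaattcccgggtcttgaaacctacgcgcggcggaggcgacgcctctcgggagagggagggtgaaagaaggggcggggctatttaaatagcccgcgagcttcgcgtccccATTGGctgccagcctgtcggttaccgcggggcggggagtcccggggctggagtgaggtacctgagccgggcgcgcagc
ID1, chr20:31605039-31605288: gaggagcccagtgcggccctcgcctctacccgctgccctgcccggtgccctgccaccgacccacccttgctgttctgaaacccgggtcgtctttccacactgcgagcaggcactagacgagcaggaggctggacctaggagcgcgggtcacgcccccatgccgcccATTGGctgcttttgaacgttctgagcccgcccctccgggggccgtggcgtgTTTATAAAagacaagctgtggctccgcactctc

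The motifs, searched on both strands with these sequences in view, were GTCTAGAC and CAGAC (SMAD-binding elements), GGCGCC (a GC-rich SMAD site), TGACGTCA (the cyclic AMP response element), TATAAA and CCAAT. Overlapping matches were counted separately. SMAD6 held GTCTAGAC, 12 bases before its start, a palindrome found in 0.182% of 35116 RefSeq promoter windows of that length. ID1 held the TATA box in 2 overlapping matches, 33 and 31 bases before its start (10.7% of windows), and an inverted CCAAT at 84 bases. BMP6 held an inverted CCAAT at 78 bases (32.0% of windows). None of the 3 windows held CAGAC (38.0% of windows), GGCGCC (16.4%) or TGACGTCA (1.65%). RefSeq listed 12 starts for 8 of the 10 genes. The BAMBI window held GGCGCC 3 times, CAGAC in 2 matches and CCAAT at 92 bases. The first SMAD7 window held CAGAC at 217 and 128 bases, the second held CAGAC at 193 and TATAAA at 35 bases, and the third held no match. ID3 held CAGAC at 147 bases and ID2 held CCAAT at 172, 122 and 78 bases. BMP4, with 0 counts in every library, held GGCGCC at 232 and CAGAC at 181 bases before its first start and CAGAC at 46 bases before the third. Several of these windows are transcribed in GENCODE 29, where exons cover all 250 bases of the first SMAD7 and the ID3 window, 229 of the ID2 window and 179 of the BAMBI window. A match describes letters and is not a binding site. BMP2 and BMP7 were not matched in the promoter table.

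Among the ligands, the data show a rise of BMP2 and BMP6, while BMP4 and BMP7 were not detected. BMP2 (chromosome 20, 6767686 to 6780246, plus strand of hg38) encodes a secreted ligand that acts mainly through type I receptors such as BMPR1A. It was at 9.97, 9.19 and 8.52 CPM in NC libraries 1 to 3 and at 24.5, 20.8 and 22.6 CPM in ASO libraries 1 to 3. Every ASO library was more than 2 times the highest NC library. The rise was 2.45-fold, a log2 fold change of 1.30 with an SE of 0.14 and a 95% interval of 0.96 to 1.63 (edgeR adjusted p = 0.000315).

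BMP6 (chromosome 6, 7726099 to 7881728, plus strand) encodes a ligand known for setting hepcidin in iron balance. Its level was 25.3, 21.95 and 24.9 CPM across the NC libraries and 36.3, 36.4 and 36.4 CPM across the ASO libraries. The ASO libraries were nearly the same and all above NC. The fold change was 1.51, or 0.60 on the log2 scale (SE 0.11, 95% interval 0.34 to 0.86, edgeR adjusted p = 0.0039).

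BMP4 (chromosome 14, 53949736 to 53958761, minus strand), a ligand made by mesenchymal cells near the crypts of normal colon, had 0 counts in all 6 libraries, which allows up to 12 counts in each. BMP7 (chromosome 20, 57168753 to 57266641, minus strand) had no counts in NC and 4, 0 and 9 counts in ASO libraries 1 to 3, all under the detection limit, so no fold is given. Other ligands of the BMP and GDF group formed a list of 15 genes, of which 7 were tested, 4 were higher and 1 was lower. The shares over all genes tested were 26.8% higher and 19.1% lower. BMP8A rose 7.57-fold and reached 22.8 ± 2.07 CPM against 3.01 ± 0.799 CPM in NC (edgeR adjusted p = 5.55e-05). A gene low in NC can pass the filter through ASO alone, so counts over the tested genes of a list lean towards higher. GDF9, an oocyte ligand, rose 10.4-fold from 0.335 ± 0.0281 CPM, near the detection limit. GDF7 went from 0.106 ± 0.126 CPM, under that limit, to 2.20 ± 0.435 CPM. GDF11 fell 1.52-fold from 68.1 ± 4.79 to 44.8 ± 1.64 CPM (edgeR adjusted p = 0.00219).

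The decoy receptor gene BAMBI (chromosome 10, 28677521 to 28682932, plus strand) encodes a membrane protein that resembles a type I receptor but lacks its kinase. It had the lowest counts of the 8 genes, with 52, 32 and 36 counts in NC and 131, 144 and 155 in ASO. In CPM this was 0.981, 0.588 and 0.713 against 2.44, 2.88 and 3.10, and the groups were well apart. It rose 3.68-fold (log2 1.88, SE 0.32, 95% interval 1.14 to 2.62, edgeR adjusted p = 0.00243), with the widest interval of the 8 genes.

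Receptor genes moved in both directions. Of 17 receptors and co-receptors listed, 13 were tested, 2 were higher and 4 lower, and their median log2 fold change was -0.13. The 6 of 13 called are near the 46.0% called over all genes tested. BMPR1A, a type I BMP receptor, went from 33.8 ± 5.21 to 19.4 ± 4.98 CPM (1.74-fold lower, edgeR adjusted p = 0.0148). That call ended without NC replicate 2 (edgeR adjusted p = 0.0605) and without ASO replicate 3 (edgeR adjusted p = 0.0568). BMPR1B had 0 counts in every library. BMPR2, the type II BMP receptor, was at 20.3 ± 2.77 and 18.6 ± 0.755 CPM (edgeR adjusted p = 0.498). ACVR1, another type I receptor, was at 27.8 ± 1.004 and 21.9 ± 2.18 CPM (edgeR adjusted p = 0.0536), and was called lower in 5 of 15 alternatives, among them a replicate block (edgeR adjusted p = 0.0406) and leaving out ASO replicate 2 (edgeR adjusted p = 0.0249). RGMA, a BMP co-receptor, rose 12-fold to 44.0 ± 2.19 CPM (edgeR adjusted p = 1.89e-06), while NEO1, which encodes the RGM-binding receptor neogenin, fell 2.09-fold (edgeR adjusted p = 0.000774). TGFBR3, the co-receptor betaglycan, fell 1.56-fold (edgeR adjusted p = 0.00906).

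Of the 6 signalling SMAD genes, 2 rose, 1 fell and 3 were not called. This share of calls is near the 46.0% called over all genes tested. The BMP-activated SMAD1 and SMAD5 did not pass, SMAD1 with 18.8 ± 0.587 CPM in NC against 21.9 ± 3.94 CPM in ASO, and SMAD5 with 33.3 ± 11.5 against 25.9 ± 4.47 CPM (edgeR adjusted p = 0.285 and 0.296). SMAD5 was called lower without NC replicate 2 (log2 fold change -0.61, edgeR adjusted p = 0.033). SMAD9, the third of them, was lower at 2.11 ± 0.368 against 3.54 ± 0.0480 CPM (edgeR adjusted p = 0.0324). The SMAD9 call ended when any single library other than ASO replicate 1 was left out (edgeR adjusted p = 0.056 to 0.101) and with a replicate block (edgeR adjusted p = 0.0512). SMAD4, the shared partner, was at 44.6 ± 6.36 and 37.1 ± 6.19 CPM (edgeR adjusted p = 0.215). The genes that rose were those of the TGF-beta branch, SMAD3 by 2.49-fold and SMAD2 by 1.78-fold (edgeR adjusted p = 7.58e-05 and 0.00169).

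The ID genes split, with ID2 and ID3 higher and ID1 not called. ID1 (chromosome 20, 31605283 to 31606515, plus strand) is a standard readout of BMP receptor activity. Its NC libraries held 335, 309.7 and 344 CPM, and its ASO libraries 339, 277 and 324 CPM. The groups overlapped, and ASO replicate 2 was the lowest of the 6 libraries. The log2 fold change was -0.07 (SE 0.10, 95% interval -0.30 to 0.15, edgeR adjusted p = 0.567), and 0.0064 without ASO replicate 2. Its upper bound of 0.15 lies under the lower bounds of both other ID genes.

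ID2 (chromosome 2, 8678845 to 8684461, plus strand), which restrains E proteins in many lineages, stood at 13.3, 12.4 and 11.8 CPM in the NC libraries, against 25.2, 19.3 and 21.5 CPM in the ASO libraries. Each ASO library was above each NC library. It rose 1.76-fold (log2 0.82, SE 0.15, 95% interval 0.47 to 1.16, edgeR adjusted p = 0.00352). An antisense gene, ID2-AS1, shares 38 exon bases with it, and since the sources used here do not say whether counting used strand, reads of that stretch may come from either gene.

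ID3 (chromosome 1, 23557926 to 23559501, minus strand), the ID family member with the highest counts, measured 413, 352 and 409 CPM across NC, against 614, 505 and 603 CPM across ASO. The lowest ASO library stood above the highest NC library. It rose 1.47-fold (log2 0.55, SE 0.10, 95% interval 0.31 to 0.79, edgeR adjusted p = 0.00401). The remaining family member, ID4, was at 0 throughout NC and at a mean of 0.100 CPM in ASO, under the detection limit.

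Ratios of counts within a library need no scaling between libraries. ID3 stood to ID1 at 1.23, 1.14 and 1.19 in NC and at 1.81, 1.82 and 1.86 in ASO. ID2 stood to ID1 at 0.0396, 0.0402 and 0.0343 in NC and at 0.0743, 0.0697 and 0.0664 in ASO. Both ratios were higher in every ASO library, by 1.54 and 1.85 times on the means. Between ID3 and ID2 the ratio was 31.4 ± 3.25 in NC and 26.2 ± 1.87 in ASO, with the groups just apart (28.1 the highest in ASO, 28.3 the lowest in NC). In a two-sided exact permutation test each of the 5 ratios computed gave p = 0.1, the smallest that 3 against 3 libraries allow, so none can pass 0.05, and Benjamini-Hochberg adjustment leaves them at 0.1. The pairs were chosen with the values known.

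**Figure D2:**
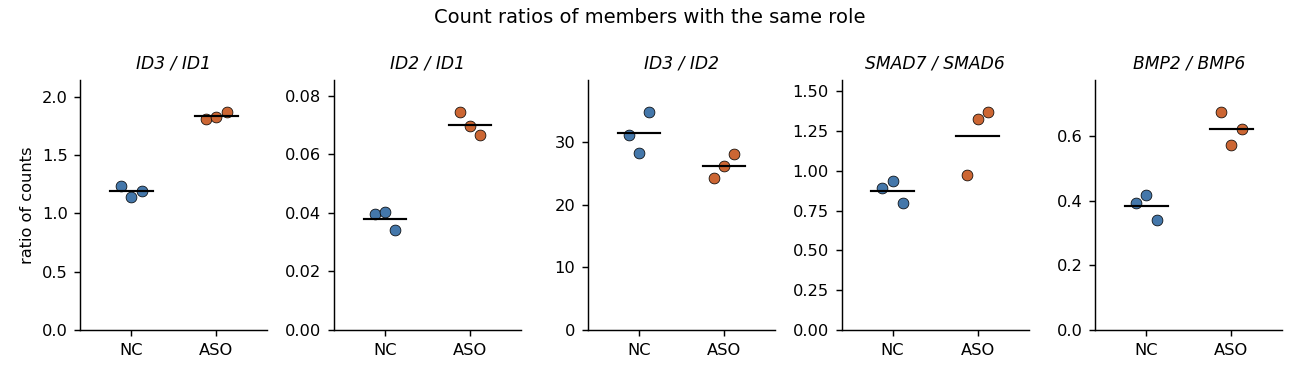
Ratio of estimated counts of 2 genes with the same role in each NC and ASO library (vertical axes from 0); points are libraries and lines are means. ID3 to ID1 moves from 1.19 to 1.83 on average, and ID3 to ID2 from 31.4 to 26.2.

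The bHLH partners that ID proteins bind were 3 listed genes, of which 1 was lower and 2 were not called. Lower calls made up 19.1% of all genes tested. TCF4 fell 1.67-fold to 7.95 ± 0.750 CPM (edgeR adjusted p = 0.00574). TCF3 (E2A) was at 194 ± 22.8 and 207 ± 32.6 CPM (edgeR adjusted p = 0.599) and TCF12 (HEB) at 48.2 ± 5.56 and 38.8 ± 5.34 CPM (edgeR adjusted p = 0.108).

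The inhibitory SMAD genes had the largest and third-largest fold changes of the 8 tested genes. SMAD6 (chromosome 15, 66702236 to 66782849, plus strand) encodes an inhibitor that acts chiefly on BMP receptors and SMAD1. The NC libraries held 10.97, 10.3 and 10.4 CPM of it, and the ASO libraries 39.6, 25.8 and 31.8 CPM. ASO replicate 1 was the highest and replicate 2 the lowest of the ASO libraries, all of them more than 2 times any NC library. The rise was 3.06-fold (log2 1.61, SE 0.18, 95% interval 1.21 to 2.02, edgeR adjusted p = 0.000297).

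SMAD7 (chromosome 18, 48919853 to 48950965, minus strand), which blocks both TGF-beta and BMP type I receptors, ran at 9.81, 9.66 and 8.34 CPM in the NC libraries, against 38.4, 34.2 and 43.6 CPM in the ASO libraries. Here ASO replicate 3 was the highest. The rise was 4.18-fold (log2 2.06, SE 0.15, 95% interval 1.72 to 2.40, edgeR adjusted p = 3.35e-05). The ratio of SMAD7 to SMAD6 counts was 0.895, 0.936 and 0.799 in NC and 0.972, 1.33 and 1.37 in ASO. Among the ligands, BMP2 to BMP6 went from 0.385 ± 0.0390 to 0.623 ± 0.0514.

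**Figure D3:**
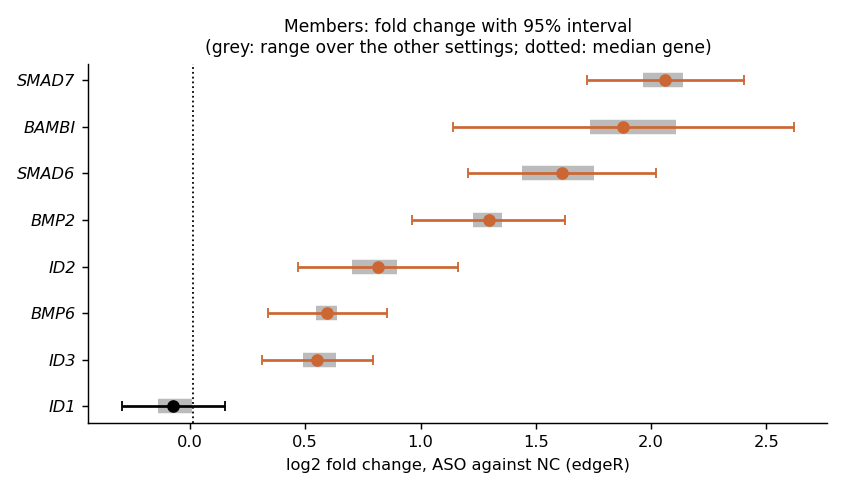
log2 fold change of ASO against NC (horizontal axis, edgeR) of the 8 tested genes, with 95% intervals as whiskers, the range over the 15 other settings as grey bars and the median of all genes tested as a dotted line. ID1 lies at -0.07 with an interval across 0, and the other genes lie between 0.55 (ID3) and 2.06 (SMAD7).

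Per kilobase of exon (GENCODE 29), the levels in NC fell in the order ID1 (267 ± 14.3 CPM per kb), ID3 (218 ± 19.1), BMP6 (8.65 ± 0.654), ID2 (5.66 ± 0.341), BMP2 (2.56 ± 0.201), SMAD7 (1.84 ± 0.161), SMAD6 (1.24 ± 0.0399) and BAMBI (0.329 ± 0.0869). With these lengths, no 2 neighbours in that order overlapped among the NC libraries. For ID3 the exon length used, 1797 bases, exceeds the span of its locus given above. A shorter length would raise its level per kb, so the order of ID1 and ID3 in NC depends on the length and is not settled. In ASO the order was ID3 (319 ± 33.4 CPM per kb), ID1 (254 ± 26.5), BMP6 (13.1 ± 0.0205), ID2 (9.98 ± 1.36), SMAD7 (7.70 ± 0.937), BMP2 (6.29 ± 0.511), SMAD6 (3.78 ± 0.807) and BAMBI (1.21 ± 0.146). SMAD7 and BMP2 overlapped there, at 6.79 to 8.66 and 5.77 to 6.80 CPM per kb.

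The 8 tested genes were alike in base composition. Their longest coding transcripts were 52.1% to 58.8% GC, and fold changes rose with GC content over all genes, from a median log2 of -0.44 in the lowest decile of GC to 0.38 in the highest. The median was 0.12 in the decile that holds BMP2 and ID2, 0.20 in that of BMP6 and BAMBI, and 0.21 in that of ID1, ID3, SMAD6 and SMAD7. In these deciles, 31.8%, 35.1% and 36.9% of the genes were called higher. The part of GC content in the members' fold changes was not tested.

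Genes listed as secreted antagonists of BMPs or activins numbered 17, of which 13 were tested, 6 were called higher and 2 lower. Their median was 0.70 on the log2 scale. Of all genes tested, 26.8% were called higher and 19.1% lower. NOG, which encodes noggin, had 40, 52 and 33 counts in NC and 510, 355 and 546 in ASO. Its mean level was 9.17 ± 1.93 CPM in ASO against 0.788 ± 0.153 CPM, 11.6-fold higher (edgeR adjusted p = 4.51e-05). GREM1, the gremlin gene of colonic stroma, rose 1.81-fold to 41.1 ± 3.65 CPM (edgeR adjusted p = 0.00135), and CHRD, the chordin gene, 5.19-fold to 3.27 ± 1.37 CPM (edgeR adjusted p = 0.00633). SOST, which encodes sclerostin, was at 0 throughout NC and at 0.9999 ± 0.474 CPM in ASO, at least 4.38-fold higher than the 12-count limit per library. FST, the activin-binding follistatin gene, was at 6.57 ± 1.49 and 10.1 ± 1.59 CPM (edgeR adjusted p = 0.0527), and was called higher without NC replicate 2 or without ASO replicate 2 (edgeR adjusted p = 0.0415 and 0.032).

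Intracellular brakes other than SMAD6 and SMAD7 were 12 listed genes, all tested, of which 7 rose and 1 fell, with a median of 0.64. Among all genes tested, 26.8% were called higher and 19.1% lower. PMEPA1, a membrane protein gene that curbs TGF-beta signalling, rose 3.30-fold from 59.9 ± 4.17 CPM (edgeR adjusted p = 1.08e-05). NEDD4L, a ubiquitin ligase gene, rose 2.904-fold and SKI, a SMAD corepressor gene, 2.43-fold (edgeR adjusted p = 5.63e-05 and 3.36e-05). TOB1, an antiproliferative SMAD-binding gene, fell 1.59-fold to 80.8 ± 3.07 CPM (edgeR adjusted p = 0.00139).

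Other genes listed as BMP targets numbered 13, of which 10 were tested, 7 rose and 3 were not called, with a median of 0.85. Higher calls made up 26.8% of all genes tested. DLX2, a homeobox gene, rose 8.57-fold to 49.3 ± 6.69 CPM and HES1, also a Notch target, 7.62-fold to 38.8 ± 2.57 CPM (edgeR adjusted p = 6.8e-06 and 5.93e-05). RUNX2 of bone formation rose 1.93-fold and GATA2 1.45-fold (edgeR adjusted p = 0.00111 and 0.00357). Over all 100 other pathway genes listed, 80 were tested, 40 were higher and 12 lower, with a median log2 fold change of 0.64. In the whole set of genes tested, 26.8% were higher and 19.1% lower.

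**Figure D4:**
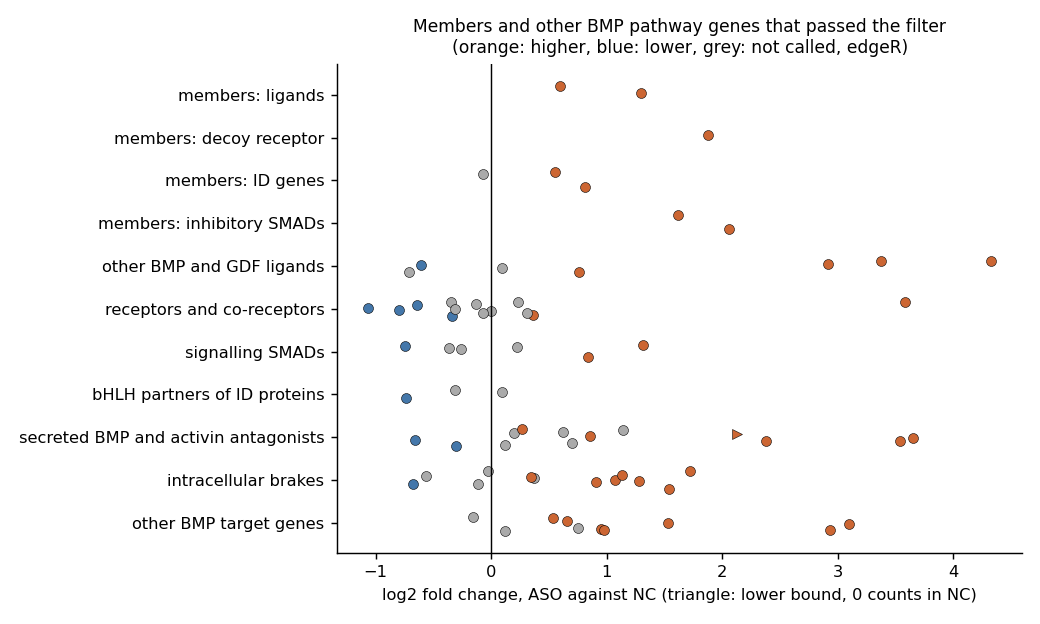
log2 fold change of ASO against NC (horizontal axis, edgeR) of each tested gene, by list; orange points were called higher, blue lower and grey not called, and the triangle is a lower bound for a gene with 0 counts in NC. Receptors centre near 0 with 4 lower and 2 higher, while antagonists, brakes and other targets lie mostly to the right.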

How the data were processed

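RNA of 6 libraries of cells labelled HCT116, 3 NC and 3 ASO, was sequenced. The authors deposited estimated counts per gene, unscaled and as whole numbers. Tools named in the submitters' processing notes are StringTie, STAR, FastQC and DESeq2, with hg38 as build. The sources used here give no versions, annotation release or strand setting.

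The counts were fitted with edgeR 4.0.16 (R 4.3.3). filterByExpr (minimum count 10, minimum total 15) kept 14062 of 19655 genes, and TMM factors were 0.978 to 1.02. The robust quasi-likelihood test compared ASO with NC without a replicate block, adjusted by Benjamini-Hochberg at 0.05. SE is the absolute log2 fold change over the square root of F. Alternatives were other scalings and filters, DESeq2 1.42.0, limma-voom (limma 3.58.1), a replicate block, counts divided by 4 and each library left out in turn. On simulated counts, 94 of 100 genes changed 2-fold and 98 of 100 changed 4-fold were recovered among 13164, and 6 unchanged genes were called. The simulation used the same fixed dispersion for every gene and left out the counts per fragment. Genes of low level were not changed in it, so recovery in the real data may be lower.

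The members, lists and motifs were chosen with earlier results of these data known. Named were all members, up to 4 called genes per list by smallest p, and chosen receptors, SMADs, antagonists and partners. A gene that this rule takes is not reported here. Markers are given as levels and counts of calls, and those named singly were chosen after their values were seen. Intervals and limits cover counting error or library spread only. GC was available for 96.6% of tested genes. Promoters are RefSeq on GRCh38.p14, matched by symbol for 8 members.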

Additional observations from a re-analysis of the deposited data

How the results depend on the processing

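The counts of members called, 7 higher, were the same under all 15 alternatives, and so were the directions of those 7. The edgeR, DESeq2 or limma-voom adjusted p of these 7 ran up to 0.0223. ID1 ran from -0.1373 to 0.0064 with a library left out. It reversed to 0.0064 on the log2 scale without ASO replicate 2 (edgeR adjusted p = 0.947), and its adjusted p was 0.311 to 0.947 over the alternatives. BMPR2 ran from -0.1883 to 0.0033 and reversed without NC replicate 2 (edgeR adjusted p = 0.989; 0.409 to 0.989 over the alternatives). The cause of either was not tested. ACVR1 was called lower with upper-quartile scaling, DESeq2, limma-voom, a replicate block and without ASO replicate 2 (adjusted p = 0.0249 to 0.0448). FST was called higher with DESeq2, limma-voom, counts divided by 4, and without NC replicate 2 or ASO replicate 2 (adjusted p = 0.0289 to 0.0439). Over all genes, the count lower in ASO was 2692, and 1755 to 3199 with a library left out, 1755 without NC replicate 1 and 1764 without ASO replicate 3. The count higher was 3772, and 3128 to 3927.

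Whether the replicate numbers pair the libraries was not settled. Deviations of same-numbered libraries from their group means correlated at 0.0525, 0.188 and 0.0152 over genes. Those of differently numbered libraries correlated at -0.142 to 0.0919, so the value of replicate 2 was the largest. With the replicate block, 3924 genes were higher and 3494 lower, and 7 members were higher. Among the tested genes named, the block ended the calls of SMAD9 and the marker VIL1 (edgeR adjusted p = 0.0512 and 0.0714) and added ACVR1 and the markers KRT8 and ELF3 as lower (edgeR adjusted p = 0.0406, 0.039 and 0.00701). At about 4 counts per fragment, BAMBI in NC rests on few fragments, and BMP4, BMP7 and ID4 lay under the detection limit.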

Other observations

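The activin and TGF-beta side of the superfamily was listed as 8 ligand genes, of which 7 were tested, 4 were higher and 1 was lower. For all genes tested the shares were 26.8% higher and 19.1% lower. INHBE, which encodes a liver activin subunit, rose 11.5-fold, reaching 71.3 ± 5.56 CPM against 6.18 ± 1.04 CPM in NC (edgeR adjusted p = 3.78e-06), and INHBC rose 8.07-fold to 5.35 ± 0.420 CPM. INHBA, the activin A subunit gene, was at 0 throughout NC and reached 1.99 ± 0.452 CPM in ASO, at least 8.73-fold above the 12-count limit per library. TGFB2 rose 2.18-fold (edgeR adjusted p = 0.00163). Of 9 listed target genes of TGF-beta, all tested, 8 rose and 1 fell, where 26.8% of all genes tested were called higher. CDKN2B, a cell cycle inhibitor gene, rose 4.88-fold, BHLHE40 4.29-fold and CCN2 3.08-fold. LTBP1, singled out once its value was known, was the 1 that fell, and it encodes a latent TGF-beta binding protein (-0.80 on the log2 scale). COL1A1 of this list is also among the fibroblast markers.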
